A study of Mus musculus with 4 samples.

Results

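The genes described here are 10 genes whose transcripts are largely restricted to pluripotent stem cells, early embryos and germ cells: Dppa2, Dppa3, Dppa4, Dppa5a, Utf1, Zfp296, Sall4, Tcl1, Fbxo15 and Lin28a. They were chosen by name, with earlier results of these arrays known, and were found by gene symbol among the 14386 genes that the named spots of the array stand for. Each gene is represented by 2 spots of the same cDNA accession, so the set covers 20 of 32064 named spots. The samples came from CGR8, a feeder-independent line of mouse embryonic stem cells, allowed to form embryoid bodies (cell aggregates that differentiate in hanging drops). On 2 arrays, total RNA from day 3 embryoid bodies shared the slide with RNA from undifferentiated cells at day 0, and on the other 2 arrays RNA from day 10 embryoid bodies did. The labels name no allele, transgene or agent, and every array has day 0 RNA in its other channel. Each pair of arrays is a first array and its technical replicate, so each day is 1 RNA pair. The SD given below covers array error alone and no p-value can be had.

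Values are log2 ratios of the 2 channels, centred so that the median spot of each array is 0. Neither the numerator nor the dyes are stated by the labels, so "negative side" and "positive side" are the sides of the deposited sign and do not say on which day a transcript was more abundant. A ratio also does not show the level of a gene, so whether a gene was expressed at all cannot be read from it, and fewer cells expressing a gene and less RNA per cell cannot be told apart. Between 37471 and 41386 of 46128 spots had a value on an array. The first day 10 array stood apart, with 18.8% of spots lacking a value against 10.3% to 13.4% on the other arrays and an SD over spots of 1.03 against 0.82 to 0.91. Results at day 10 are therefore also given from the second array alone.

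A pluripotent cell keeps its state through transcription factors such as Oct4 (gene Pou5f1), Sox2 and Nanog, and the genes described here are known either as their targets or as their partners. They encode very different proteins. Dppa2 and Dppa4 are DNA-binding partners with SAP domains, Dppa5a is an RNA-binding protein with a KH domain, and Dppa3 (Stella) guards DNA methylation in the early embryo. Utf1 is a chromatin protein, Zfp296 and Sall4 are zinc finger proteins, and Sall4 recruits the NuRD histone deacetylase complex. Tcl1 is a coactivator of the Akt kinases, Fbxo15 is an F-box protein of ubiquitin ligases, and Lin28a is an RNA-binding protein that blocks maturation of the let-7 microRNAs. Apart from Zfp296 and Lin28a, all of them were among the 24 candidates of the first screen for factors that reprogram fibroblasts.

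RefSeq promoter windows on GRCm38.p6, from 250 bases before the start site to 50 bases after it, were at hand for Zfp296, Utf1, Tcl1 and Lin28a. The windows of Zfp296 and Utf1 are shown because both genes lie on chromosome 7, and Zfp296 was beyond 2-fold at day 3 while Utf1 was not. This pair was thus picked with its day 3 values known, and those of Zfp296 rest mostly on its second spot. Dppa5a and Sall4, also beyond 2-fold at day 3, had no window. Whether any motif goes with the ratios was not tested. Both strands were searched for the octamer ATGCAAAT, read by POU factors such as Oct4, for the Sox core CATTGT, for the GC box GGGCGG and for TATAAA, and capitals mark the matches. Adjacent GC boxes in Utf1 overlap by 1 base.

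Zfp296, chr7:19577037-19577336, plus strand: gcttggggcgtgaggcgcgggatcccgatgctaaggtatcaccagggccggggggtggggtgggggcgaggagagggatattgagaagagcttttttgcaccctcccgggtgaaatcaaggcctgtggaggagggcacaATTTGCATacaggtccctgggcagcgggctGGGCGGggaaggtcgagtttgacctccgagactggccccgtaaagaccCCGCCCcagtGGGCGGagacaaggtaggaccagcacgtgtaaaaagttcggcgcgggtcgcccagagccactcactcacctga
Utf1, chr7:139943606-139943905, plus strand: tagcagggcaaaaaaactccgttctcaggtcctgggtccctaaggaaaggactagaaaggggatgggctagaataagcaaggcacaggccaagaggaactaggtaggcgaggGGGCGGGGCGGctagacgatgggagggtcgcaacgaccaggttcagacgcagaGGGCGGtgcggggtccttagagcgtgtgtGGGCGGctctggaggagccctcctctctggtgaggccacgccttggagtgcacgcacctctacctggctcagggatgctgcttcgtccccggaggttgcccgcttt

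The Zfp296 window held 1 octamer, on the reverse strand at position -111 from the start site, and 3 GC boxes. The Utf1 window held 4 GC boxes and neither octamer nor Sox core. The Lin28a window held 1 Sox core and 1 GC box, and the Tcl1 window 2 GC boxes. Of 32851 windows of 300 bases, 1.74% held the octamer, 12.6% the Sox core, 35.7% a GC box and 13.6% TATAAA, which none of the 4 windows held. CpG pairs numbered 19 in Zfp296, 17 in Utf1, 11 in Tcl1 and 10 in Lin28a, against a median of 7 over all windows. A match is a run of letters and no measured binding site.

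The first comparison sets day 3 against day 0. A gene was counted as beyond the limit where each of its arrays read at least 1 in size on the log2 scale (2-fold), with the same sign. Dppa5a, Zfp296 and Sall4, 3 of the 10 genes, passed it with negative values, and no gene passed it with positive ones. Over all 13707 genes measured, 2.8% were beyond the limit, 1.03% on the negative and 1.77% on the positive side. Since the genes were chosen with these values known, the count describes them and tests nothing. Their median was -0.44 (-0.40 on array 1 and -0.70 on array 2), where all genes had a median of 0.01, and 9 of the 10 means were below 0, against 49.5% of all genes.

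**Figure D1:**
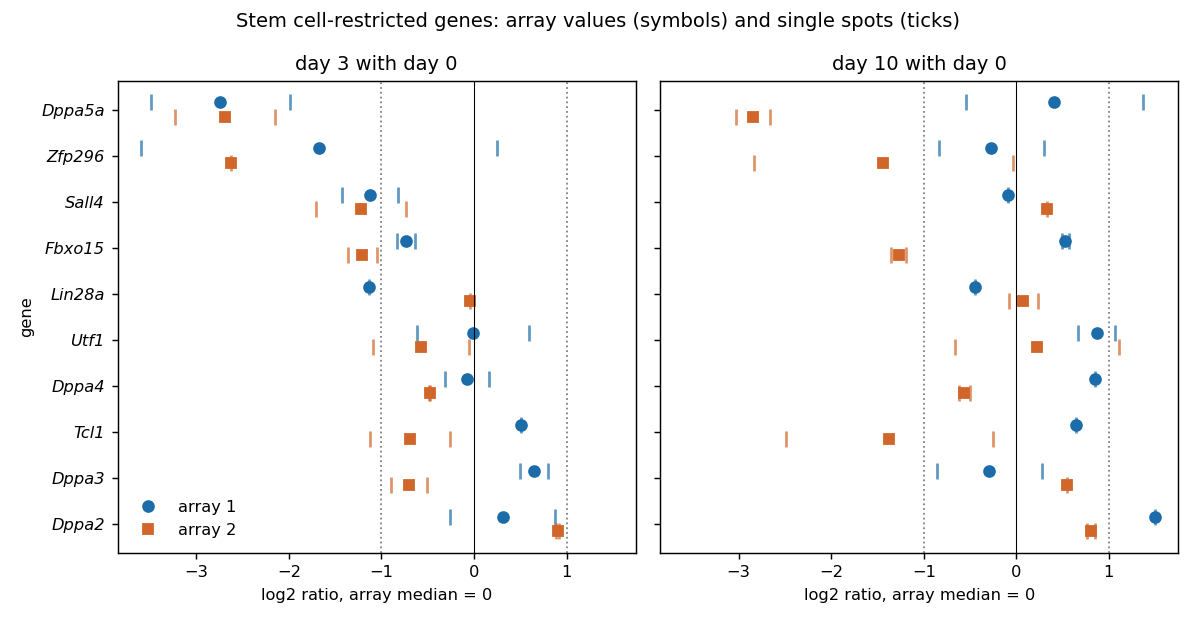
Log2 ratios of the 10 genes on both arrays of day 3 (left) and day 10 (right), with the gene's mean over its spots on an array as a circle (array 1) or square (array 2), single spots as ticks and dotted lines at 2-fold. At day 3 Dppa5a lies at -2.74 and -2.69 on its arrays, while at day 10 its arrays lie at 0.41 and -2.85.

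Averaged over its spots, Dppa5a had the mean farthest from 0 among the 10 genes at day 3. Its arrays read -2.74 and -2.69, a mean of -2.71 ± 0.04 (SD of 2 technical arrays, as for every mean of a single day below), which put 0.0292% of all genes at or below it. All 4 spot values were beyond the limit: the first spot read -1.99 and -2.15 and the second -3.50 and -3.23. With the rule that every spot value must be beyond the limit, 0.336% of genes were on the negative side and Dppa5a was the only one of the 10 there. The 2 spots thus differed by more than 1 on each array, although the arrays agreed within 0.053.

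Zfp296 had array values of -1.67 and -2.63, a mean of -2.15 ± 0.67. Both arrays lay beyond the limit, but its spots did not read alike. The second spot read -3.60 and -2.63, while the first read 0.25 on array 1 and had no value on array 2. The value of array 1 is therefore an average of a spot far on the negative side and a spot near 0, and that of array 2 is the second spot alone.

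Sall4 had array values of -1.12 and -1.22, a mean of -1.17 ± 0.07. Each array held 1 spot beyond the limit and 1 short of it: the spots read -1.42 and -0.82 on array 1, and -0.74 and -1.71 on array 2. The spot that was lower on array 1 was the higher of the pair on array 2. Taking the spot of Sall4 with the smaller array difference gave -1.08, with 1 of its arrays short of the limit.

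Fbxo15 came next, at -0.73 and -1.21 (mean -0.97 ± 0.34), with all 4 spot values between -1.36 and -0.64. It passed the limit on array 2 but not on array 1. Lin28a read -1.14 on array 1 and -0.04 on array 2 (mean -0.59 ± 0.78). Each of these arrays read a different spot, since the first spot had a value on array 2 alone and the second on array 1 alone.

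The remaining genes lay nearer to 0. Utf1 had -0.01 and -0.57 (mean -0.29 ± 0.39), and its spots ran from -1.09 to 0.59. Dppa4 had -0.08 and -0.48 (mean -0.28 ± 0.28). In both genes the 2 arrays were negative and neither reached the limit.

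Tcl1 had 0.51 and -0.69 (mean -0.09 ± 0.85). Dppa3 had 0.65 and -0.70 (mean -0.03 ± 0.95), and both of its spots were positive on array 1 and negative on array 2. The arrays of these 2 genes thus gave opposite signs. Dppa2, the DNA-binding partner of Dppa4, was the only one of the 10 with a mean above 0, at 0.31 and 0.91 (mean 0.61 ± 0.42), and 1 of its 4 spot values was negative.

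In order from the negative side, the day 3 means run Dppa5a, Zfp296, Sall4, Fbxo15, Lin28a, Utf1, Dppa4, Tcl1, Dppa3 and Dppa2. The array ranges of Dppa5a and Zfp296 did not overlap, and neither did those of Zfp296 and Sall4. The lead of Dppa5a over Zfp296 rests on averaging spots, and the single spots of these genes overlapped. With the spot of smallest array difference Zfp296 had -3.11 and Dppa5a -2.07. With only spots measured on both arrays they had -3.11 and -2.71. From Sall4 on, each gene's array range overlapped that of the next. Over all 36 spot values at day 3, 27 were negative, 13 of them at or beyond -1, and none was at or above 1. These are repeated readings of the same genes on technical arrays, and the 13 include every value of Dppa5a. The share over all spots was not taken, so the counts only describe these spots.

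**Figure D2:**
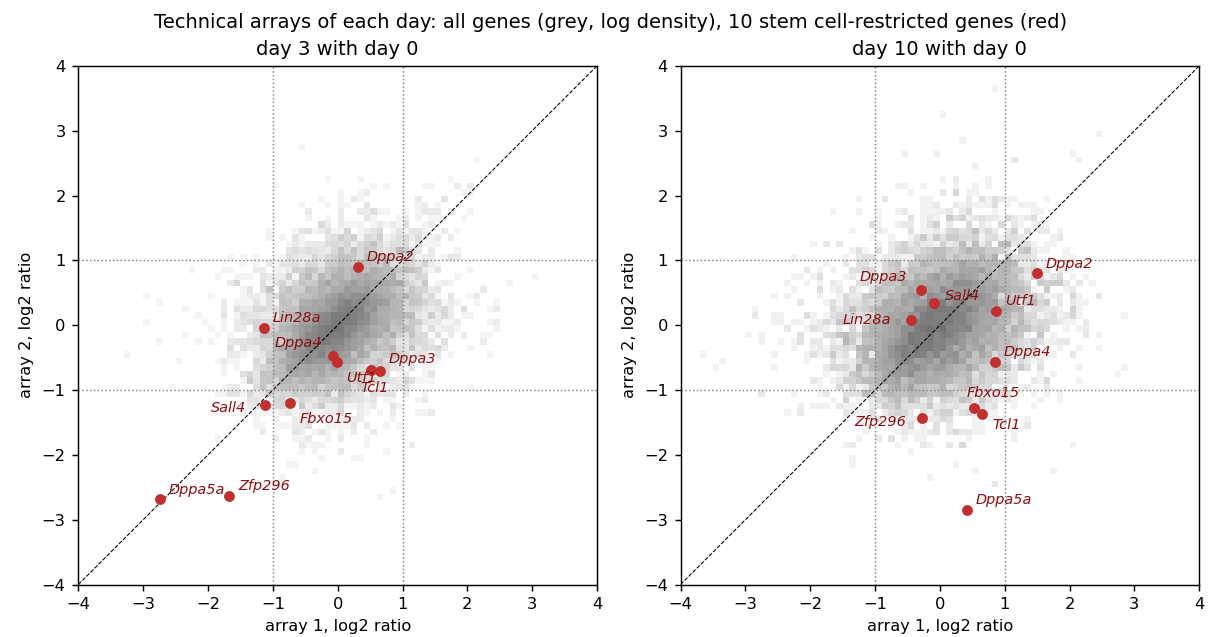
Log2 ratio on array 1 (horizontal) against array 2 (vertical) for day 3 and day 10, with all genes within 4 of 0 as grey density on a log scale, the 10 genes in red, dotted lines at 2-fold and the diagonal dashed. At day 3 Dppa5a and Sall4 lie near the diagonal, and at day 10 Dppa5a, Fbxo15 and Tcl1 are positive on array 1 and below -1 on array 2.

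The second comparison sets day 10 against day 0. None of the 10 genes was beyond 2-fold on both arrays, where 3.54% of 13199 genes were. No test was run, so this count of 0 has no p-value beside it. With the limit on the mean alone Dppa2 and Dppa5a were beyond it, on opposite sides, as were 10.6% of all genes. The median of the 10 genes was -0.03, but 0.47 on array 1 and -0.24 on array 2, and 5 of the 10 means were below 0, against 50.7% of all genes.

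The day 10 arrays disagreed on these genes. Dppa5a read 0.41 on array 1 and -2.85 on array 2, a mean of -1.22 ± 2.30. On array 1 its spots read 1.36 and -0.54, and on array 2 -3.03 and -2.66. Fbxo15 read 0.53 and -1.27 (mean -0.37 ± 1.27), and here both spots of an array read alike: 0.49 and 0.57 on array 1, -1.20 and -1.35 on array 2. Spot error within an array is thus small for Fbxo15 beside the difference between the arrays.

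Tcl1 read 0.65 and -1.37 (mean -0.36 ± 1.43), with spots of -2.49 and -0.25 on array 2 and 1 spot without a value on array 1. Dppa4 read 0.84 and -0.56 (mean 0.14 ± 0.996), with 1 spot on array 1. Zfp296 read -0.27 and -1.44 (mean -0.85 ± 0.83). As at day 3, its second spot carried the negative values, -0.83 and -2.83, while the first read 0.30 and -0.04.

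Dppa2 was on the positive side on both arrays, at 1.497 and 0.81 (mean 1.15 ± 0.49), and array 2 was short of the limit. Its array 1 value rests on 1 spot, and the 2 spots of array 2 read 0.76 and 0.85. Utf1 was also positive on both, at 0.87 and 0.22 (mean 0.55 ± 0.45), although its spots on array 2 read 1.11 and -0.66. Sall4 read -0.10 and 0.33 (mean 0.12 ± 0.30), from a different spot on each array. Dppa3, at -0.29 and 0.54, and Lin28a, at -0.44 and 0.08, had opposite signs on their arrays, with means of 0.13 ± 0.59 and -0.18 ± 0.37.

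On array 2 alone, Dppa5a, Zfp296, Tcl1 and Fbxo15 were beyond -1 and none was beyond 1, where 16.2% of all genes were beyond 2-fold on that array. On array 1 alone Dppa2 was beyond the limit, on the positive side, where 20.4% of all genes were. Both arrays had the same sign for 3 of the 10 genes at day 10, against 60.8% of all genes, and for 8 of 10 at day 3, against 64.7%. Array 1 was the higher of the pair for 7 of the 10 genes at each day, against 50.4% of all genes at day 3 and 48.1% at day 10. The median difference, array 1 minus array 2, was 0.93 at day 10 and 0.44 at day 3, against -0.03 and 0.00 over all genes.

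Over all genes, the agreement of the technical arrays differed in step with a property of the deposited values themselves. Several of the 10 genes departed from this at day 10, as given below. Many of these values are the log2 of a ratio of whole numbers, and the share that were ratios of whole numbers up to 10000 was 59.3% to 62.0% by array. The second Dppa5a spot, for instance, is 77 over 886 on day 3 array 1 and 583 over 5579 on array 2. The second Zfp296 spot on day 10 array 2 is 749 over 5504, and the first Tcl1 spot on that array is 5 over 29. Any factor shared by both numbers cancels, and a pair with numbers above 10000 can match a value by chance, so the size of a pair is not a measured brightness. Of the 69 spot values of the 10 genes, 48 were ratios of this kind and 21 had larger pairs, among them 7 of 8 for Fbxo15 and 4 of 7 for Zfp296.

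Genes were ranked by the size of their smallest pairs, larger pairs included, to compare each gene with others of like rank. Among the 25% of genes with the largest pairs a single array had an SD of 0.29 (day 3) and 0.41 (day 10), and among the 25% with the smallest pairs of 0.84 and 0.94. Zfp296 and Fbxo15 stood at percentiles 83.0 and 77.6 of this rank, mostly through pairs above 10000. Dppa2, Dppa5a, Dppa3 and Dppa4 lay between percentiles 47.5 and 58.2, Tcl1 at 33.2, and Sall4, Lin28a and Utf1 at 17.9, 15.8 and 14.7. The small SD of Sall4 at day 3 thus stands beside a typical error of 0.84, and 8.38% of genes of like rank had an array difference no larger.

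**Figure D3:**
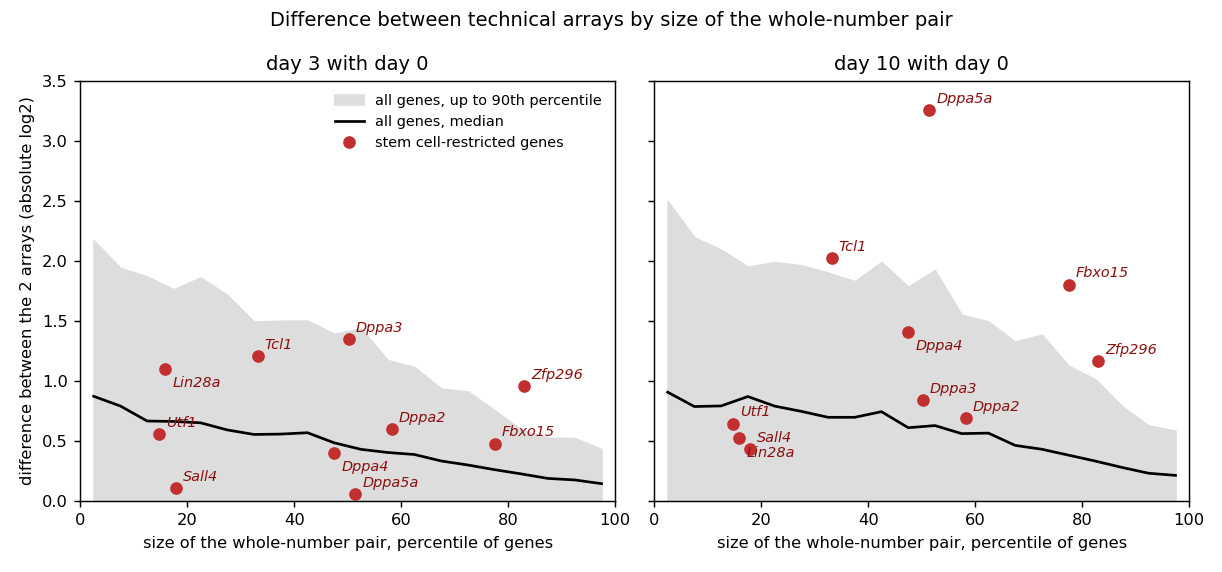
Absolute difference between the technical arrays of a day against the size of the smallest whole-number pair (percentile among genes, not a measured brightness), with the median of all genes in bands of 5 percentiles as a line, the range up to their 90th percentile in grey and the 10 genes as red points. Zfp296 lies above the grey range at both days, and at day 10 Dppa5a, Tcl1 and Fbxo15 do too.

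Zfp296 differed by 0.95 between the day 3 arrays, at percentile 97.4 of the 696 genes of like rank, whose median was 0.22, and by 1.17 between the day 10 arrays, at percentile 93.2. Fbxo15 differed by 0.48 at day 3, at percentile 75.7, and by 1.80 at day 10, at percentile 97.5 of 708 genes with a median of 0.38. Dppa5a differed by 0.053 at day 3, at percentile 8.26 of 702 genes, and by 3.26 at day 10, at percentile 98.5 of 666 genes. The arrays of Sall4, Lin28a and Utf1 differed at day 10 by no more than the median of their like, at percentiles 26.2, 31.0 and 42.5.

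The spots of these genes can be read against all genes with 2 spots in the same way. On day 3 array 1, 4 of the 8 genes with both spots measured had spots that differed by 1 or more, against 21.6% of 10630 genes, and on array 2 it was 2 of 8, against 18.9%. At day 10 it was 3 of 5 on array 1, against 30.1%, and 3 of 8 on array 2, against 23.5%. Of 80 possible spot values of the 10 genes, 11 were missing, 5 of them on day 10 array 1.

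Day 10 was set against day 3 by way of the day 0 channel, which the labels do not state to be a single preparation. Both days share that channel, so the values are set side by side and no agreement between the days is read from them. For a difference between the days, the SD is the square root of the summed variances of the day 3 and day 10 array pairs. Sall4 was the only one of the 10 beyond 2-fold in each of the 4 array differences, at 1.29 ± 0.31 (day 10 minus day 3, range 1.03 to 1.56). Over 12654 genes, 3.54% were beyond the limit in either direction and 1.82% with day 10 more positive. Its values were -1.12 and -1.22 at day 3 and -0.10 and 0.33 at day 10. It lost the limit when each array's trend over the size of the whole-number pair was removed (1.19), and no spot of Sall4 had a value on all 4 arrays.

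Dppa5a had a mean difference of 1.496 ± 2.30, Zfp296 of 1.30 ± 1.07 and Utf1 of 0.84 ± 0.60. The single array differences of Dppa5a ran from -0.16 to 3.15, so they overlapped 0, and those of Zfp296 from 0.24 to 2.36. Fbxo15 had 0.60 ± 1.32, Dppa2 0.54 ± 0.65, Dppa4 0.42 ± 1.04, Lin28a 0.40 ± 0.86, Dppa3 0.15 ± 1.12 and Tcl1 -0.27 ± 1.66. In each of these 6 genes the SD was larger than the mean.

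The day 3 and day 10 arrays did not overlap for 3 of the 10 genes (Sall4, Zfp296 and Utf1), in each with day 10 on the more positive side. Of all genes 43.3% had arrays that did not overlap, 20.7% with day 10 more positive. The 3 of 10 lie below the share in either direction and above that with day 10 more positive, which was not tested. The median difference of the 10 genes was 0.57, against -0.01 over all genes, and 0.36 without day 10 replicate 1 and 1.10 without day 10 replicate 2.

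Of the other 16 candidates of the reprogramming screen, 13 were measured at day 3 and 12 at day 10, and none was beyond the limit at either day. Their median was -0.30 at day 3, with 9 of 13 means below 0, and 0.26 at day 10 (0.41 on array 1 and -0.42 on array 2). Lowest at day 3 was Pou5f1, which encodes Oct4, with array values of -0.79 and -1.002 and of -0.69 and -2.09 at day 10. Zfp42 (Rex1) read -0.77 and -0.79 at day 3 and -0.68 and -0.43 at day 10, and Klf4, a Krüppel-like factor, -0.41 and -0.40, then -1.17 and -0.85. All of these were negative on all 4 arrays.

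Nanog read -0.74 and -0.22 at day 3 and 0.15 and -0.59 at day 10, and Sox2 -0.16 and -0.59 at day 3, with a value of -0.54 on 1 day 10 array. Tdrd12, a Tudor domain gene of the germ line, was positive on all 4 arrays, between 0.34 and 1.08. So were Sox15 (between 0.19 and 0.47) and Gdf3, a TGF-beta family ligand (between 0.14 and 0.66). Myc read -0.42 and -0.11, then 1.17 and 0.68.

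The other candidates had large array differences or values near 0. Dnmt3l, a cofactor of DNA methyltransferases, had -0.30 ± 0.92 at day 3 and 0.15 ± 1.08 at day 10, Stat3 -0.64 ± 1.32 and 0.37 ± 1.60, and the adaptor gene Grb2 -0.01 ± 0.49 and -0.32 ± 0.13. Ctnnb1, which encodes beta-catenin, had 0.31 ± 0.03 at day 3, and Khdc3, a relative of Dppa5a, 1.23 ± 1.22 at day 10. Eras and Fthl17a were on no named spot.

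**Figure D4:**
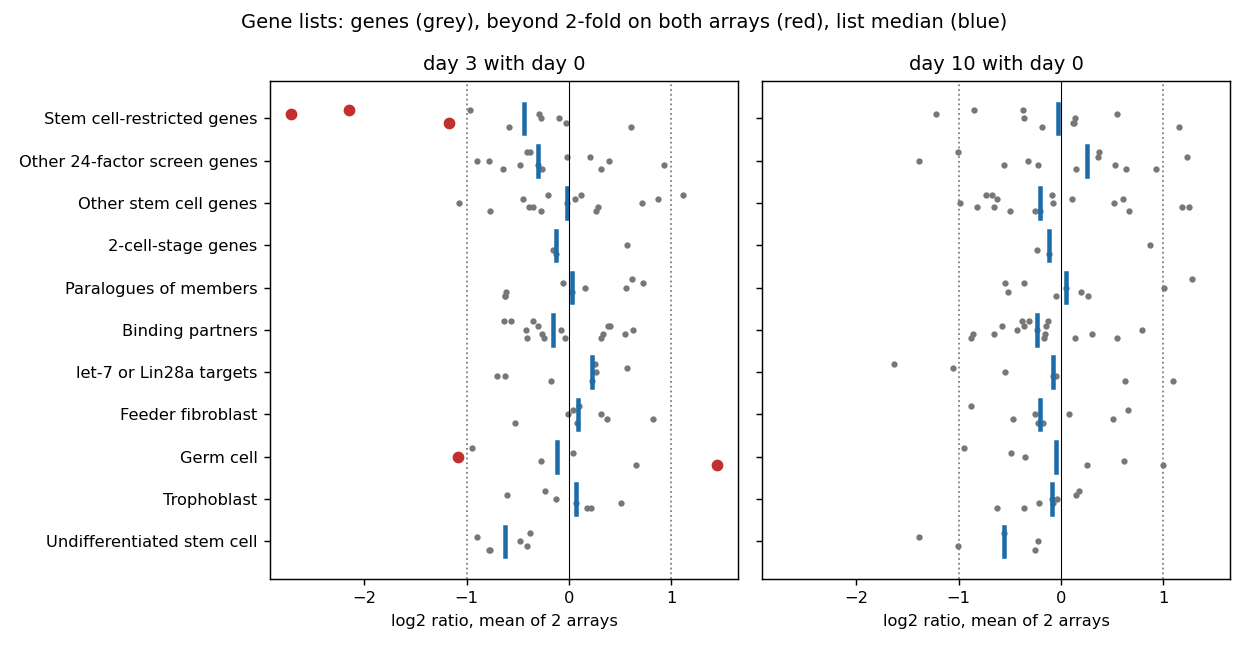
Mean log2 ratio of every measured gene of 11 lists at day 3 (left) and day 10 (right), with genes beyond 2-fold on both arrays in red, list medians as blue bars and dotted lines at 2-fold. The 3 red points of the stem cell-restricted genes at day 3 are Dppa5a, Zfp296 and Sall4, and those of the germ cell list are Prdm1 and Tfap2c.

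Among 26 other stem cell genes, 15 were measured at day 3 and 17 at day 10, with medians of -0.02 and -0.20 and none beyond the limit. Trap1a had the mean farthest from 0 at day 3, at 1.12 ± 2.07, and the growth factor gene Fgf4 at day 10, at 1.25 ± 0.36. Fgf4 was beyond the limit between the days, at 1.60 ± 0.41. Of 10 genes of the 2-cell stage, which Dppa2 and Dppa4 are known to help switch on, 3 were measured, namely Tcstv1, Usp17la and Eif1a. Their medians, -0.12 at both days, are the values of Eif1a, and Dux and the Zscan4 genes of the list were not measured. The farthest was Usp17la, at 0.57 ± 0.52 and 0.87 ± 0.82.

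None of 9 measured paralogues was beyond the limit at either day, and their medians were 0.03 and 0.05. Sall3, a paralogue of Sall4, was positive on all 4 arrays, at 0.76 and 0.48 and then 0.97 and 1.60, while Sall4 itself was negative on both day 3 arrays. Tcl1b5, a relative of Tcl1, read 1.03 and 0.43 at day 3 and -1.04 and -0.05 at day 10. Of 22 binding partners, those measured were Akt1 and Akt2, the ubiquitin ligase subunits Skp1, Cul1 and Rbx1, most NuRD subunits, Dnmt1, the uridylyltransferase Tut4 and the exonuclease Dis3l2. They had medians of -0.16 over 16 genes at day 3 and -0.24 over 17 at day 10, none beyond the limit. Farthest among them was the NuRD subunit gene Mta2, at -0.64 ± 0.44 and -0.87 ± 0.51.

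Targets of let-7 or of Lin28a, 7 of 10 measured, had medians of 0.22 and -0.08 and none beyond the limit. The cell cycle gene Ccnd1 had -0.70 ± 0.09 at day 3, and Igf2bp1, which encodes an RNA-binding protein, -1.63 ± 2.41 at day 10.

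By their order in RefSeq's GRCm38.p6 gene table, some of the 10 genes sit beside others of this network. Dppa3 lies between Gdf3 and Nanog on chromosome 6, Dppa4 and Dppa2 are next to each other on chromosome 16, and Dppa5a is next to Ooep, a KH domain gene of the oocyte, on chromosome 9. Ooep was negative on all 4 arrays, at -0.48 and -0.75 and then -0.38 and -0.66, on a smaller scale than Dppa5a at day 3. Tcl1b4, beside Tcl1 on chromosome 12, was positive on all 4, from 0.25 to 1.40. Of 12 neighbours on the array that are not among the 10, 11 were measured at day 10. None was beyond the limit at either day, where 2.8% of all genes were at day 3 and 3.54% at day 10. At day 3, 7 of the 12 means were below 0, against 49.5% of all genes. Gdf3, Nanog, Ooep and Tcl1b4 were already counted in the lists above. Fbxo15, between Cyb5a and Timm21 on chromosome 18, was left out of this look, and the values of its neighbours were not taken.

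Markers of other cell types were read beside these genes. Germ cells also express several of the 10, and 6 of 10 germ cell markers were measured at each day, with medians of -0.12 and -0.05. At day 3 Tfap2c, a transcription factor shared by germ cells and trophoblast, was beyond the limit on the positive side (1.45 ± 0.00) and Prdm1, a repressor that germ cell precursors need, on the negative side (-1.08 ± 0.02). Dazl, a germ cell RNA-binding protein gene, was positive on all 4 arrays (0.66 ± 0.05 and 0.996 ± 0.126). Sycp3, which encodes a protein of the meiotic chromosome axis and is also on this marker list, went the other way (-0.95 ± 0.11 and -0.95 ± 0.17). Sycp3 was picked for naming here after its values were seen.

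No feeder fibroblast marker (8 of 10 measured, medians 0.09 and -0.20) and no trophoblast marker (7 and 8 of 10, medians 0.07 and -0.08) was beyond the limit. Farthest from 0 among fibroblast markers were Col1a2 (0.82 ± 1.20 at day 3) and Lum (-0.88 ± 0.49 at day 10), and among trophoblast markers Hand1 (-0.61 ± 1.93) and Krt7 (-0.63 ± 0.44). Markers of undifferentiated cells (Pou5f1, Sox2, Nanog, Zfp42, Esrrb, Klf4 and Tdgf1) had medians of -0.62 over 6 genes and -0.55 over 5. Every measured one had a mean below 0 at both days and none was beyond the limit. Pou5f1, Sox2, Nanog, Zfp42 and Klf4 are also among the screen candidates above, and Esrrb and Tdgf1 among the other stem cell genes. These markers are therefore no separate set of values. Of the control genes Actb had 0.16 ± 0.14 and -0.14 ± 0.18, while Gapdh, with 464 spots, had -0.73 ± 0.04 and -0.49 ± 0.12. The part of other cell types in the values of the 10 genes was not tested.

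The genes whose 4 array values were most like those of Dppa5a were ranked by the root mean square difference over the 4 arrays among 12653 genes. Cfb, a complement factor, was nearest at 0.77, followed by Zfp296 at 0.95, Rabac1 at 0.95, Wdr64 at 1.04 and Mrps18a at 1.13. Cfb read -3.27 and -1.70 at day 3 and 0.35 and -1.80 at day 10. The genes nearest to Zfp296 were Ppp1r35 at 0.40, Spata3 at 0.54, Wdr64 at 0.57, Npvf at 0.60 and Npm1, a nucleolar chaperone gene, at 0.62. Wdr64 was on both lists, at -2.12 and -2.004 at day 3 and -1.07 and -1.72 at day 10. With 4 arrays of 2 RNA pairs the likeness is a description of these values.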

How the data were processed

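The deposited table gives 1 log2 ratio of the channels per spot and array, with the base read from the values. Scanner, background treatment and dye correction were not given in the sources used here. Gene symbols came from the platform's probe table and were checked by Entrez ID against RefSeq's GRCm38.p6 gene table. Of 46128 spots, 32544 had 1 gene symbol, 588 several and 12996 none, and 480 spots of 5 control accessions (96 spots each) were left out.

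Arrays were centred on their medians, and a gene's spots were averaged. The limit was 1 (log2) on every array on 1 side. The genes and lists were chosen with earlier results of these data known. The text names all 10 genes, the measured candidates of the 24-factor screen, list genes beyond the limit or farthest from 0, the 5 genes most like Dppa5a and like Zfp296, Gapdh and Actb. Neighbouring genes were added by position after the data were examined. The size of a whole-number pair is the log2 of the geometric mean of the smallest 2 numbers that yield a deposited value to 9 decimals. No significance test was run, because each day is 1 RNA pair. Steps were tested on simulated data, with noise that was independent between spots and had 1 SD per day. That noise does not copy array error that varies between genes or is shared by the spots of a gene. The number of arrays limits the precision. Software was pandas 2.3.3 and numpy 2.4.6 under Python 3.11.15, and matplotlib 3.10.9 for plots.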

Additional observations from a re-analysis of the deposited data

Results flagged for a closer look

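Both day 3 arrays lay on one side of 0 and both day 10 arrays on the other for 5 of 38 genes (13.2%), a difference that was not tested. The 38 are those of the 10 genes, the reprogramming candidates, the list genes beyond the limit or farthest from 0, Gapdh and Actb with values on all 4 arrays. Genes named only as neighbours or for their likeness, and Sycp3, were not counted. Of all 12654 genes with values on all 4 arrays, 14.0% did the same, so the share among the 38 is near that of all genes. Utf1 had a mean of -0.29 at day 3 and 0.55 at day 10. Fgf4 had -0.35 and 1.25, and Myc -0.26 and 0.93. On the opposite course, Tcl1b5 had 0.73 and -0.55 and the control gene Actb 0.16 and -0.14.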

How the results depend on the processing

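At day 3 the count of 3 genes beyond the limit stayed within 1.5 times (2 to 4) under all alternatives but a pair, though its members changed. It was 2, without Sall4, with the spot of smallest array difference (4.57% of all genes passed). With a 1.5-fold limit it was 4, with Fbxo15 added (11.7%). It was also 4 without replicate 1 (Fbxo15 added, 12.8%) and without replicate 2 (Lin28a added, 14.4%). It was 1 (Dppa5a) with a 4-fold limit, which 0.175% of all genes passed. It was also 1 (Dppa5a) where every spot value had to pass (1.42% of all genes). The median of the 10 genes at day 3 ran from -0.70 to -0.40 with 1 array left out. At day 10 the count of 0 became 1 (Dppa2) with a 1.5-fold limit, which 14% of all genes passed. With the limit on the mean alone it became 2 (10.6% of all genes). It was 4 without replicate 1 (16.2% of all genes) and 1 without replicate 2 (20.4%). The day 10 median ran from -0.24 to 0.47 with 1 array left out. Between the days the count of 1 became 0 with the spot of smallest array difference (5.22% of all genes passed). It was 0 too with the trend over the size of the whole-number pair removed (3.62%) and with a 4-fold limit (0.356%). The same held with spots measured on all 4 arrays (3.93%) and where every spot difference had to pass (1.22%). The count was 3 with the limit on the mean alone (16.2% of all genes) and 1 to 4 with 1 array left out (10% to 15.4%). The cause of these changes was not tested. Requiring spot values on every array and every spot beyond the limit were added after the data were examined. No gene beyond the limit reversed its sign under an alternative. No paired analysis was possible because each day is 1 RNA pair on technical arrays that the labels do not number. Signal over background was not used here, so which values it limits is unknown.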
